A study of Mus musculus with 14 samples.

Results

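BTB-Kelch proteins are substrate receptors of the cullin 3 ubiquitin ligase. The members described here are the mouse genes named Klhl or Kbtbd followed by a number. Of 46 rows of the count table with such a name, 43 held 10 or more counts summed over all 14 libraries and were kept, out of 56953 genes in the table. The other 3, Klhl1, Klhl17 and Klhl34, fell below that minimum. Counts were high enough for a test in 39 of the 43, and the 4 that were not tested were Klhl10, Klhl14, Klhl35 and Klhl38.

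A BTB-Kelch protein binds cullin 3 (CUL3) through its BTB domain and holds a substrate on its Kelch propeller. The RING protein RBX1 brings the ubiquitin-charged enzyme to the same complex. The ligase becomes active when the small ubiquitin-like protein NEDD8 is joined to the cullin, a step called neddylation, and the COP9 signalosome removes NEDD8 again. In skin the family is best known for KLHL24, which targets keratin 14. Inherited stabilising mutations of KLHL24 cause a form of skin fragility.

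The series measured RNA in mouse skin by 3′ tag sequencing, which reads a short tag near the end of each polyadenylated transcript. The 6 groups combined 3 genotypes with 2 treatments. Wild type was C57BL/6J, and both other genotypes were NEDD8fl/fl, either without the transgene (K14-CreERT neg, here Cre-negative) or with it (K14-CreERT pos, here knockout). The K14 promoter drives Cre in keratinocytes, so the other cells of the skin keep their Nedd8 alleles. The treatments were DMSO and imiquimod, a Toll-like receptor agonist, given as Aldara cream at 5% every day from day 0 to day 7. There were 2 wild-type, 3 Cre-negative and 3 knockout libraries with DMSO, and 2 of each genotype with imiquimod. The cream went on the shaved back or the right ear, and the labels do not tell which site a library came from. They record an induction on consecutive days before the start for the knockout mice and name none for the others, so induction and genotype cannot be told apart. The labels give neither an age nor the animal behind each library, so p-values measure the spread between these samples, which may be technical. There was no group with cream that lacks imiquimod. The design text of the series names another experiment, a topical NEDD8 inhibitor against DMSO on wild-type skin over 3 days, and the extraction text speaks of cells. The labels of each sample were followed here, and the conflict was not resolved.

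Total counts ran from 5552954 to 34362477 per library. The share of an 18S ribosomal RNA gene ran from 3.84% to 19.1%, and the highest shares were those of Cre-negative imiquimod replicate 2 and knockout DMSO replicate 1. Levels are in CPM, read counts relative to the library total after TMM scaling. The Nedd8 RNA stood at 375, 158 and 147 CPM in the knockout DMSO libraries, at 360, 290 and 291 in the Cre-negative ones and at 203 and 270 in the wild type. With imiquimod it stood at 308 and 151 CPM in the knockout, at 314 and 461 in the Cre-negative and at 684 and 376 in the wild type. The groups overlapped with DMSO but not between knockout and Cre-negative with imiquimod, and neither difference passed the test. The log2 fold change of knockout against Cre-negative was -0.47 ± 0.40 among the DMSO libraries (adjusted p = 0.403), and the imiquimod libraries gave -0.76 ± 0.50 (adjusted p = 0.326). A tag near the 3′ end checks the deletion only if it lies in the deleted part, which the labels do not give. By Xist and Y-linked counts, the wild-type and knockout DMSO libraries were female, and the Cre-negative and knockout imiquimod libraries were male. Of the Cre-negative DMSO libraries, replicate 3 was female and the other 2 were male.

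The summed level of the 39 tested members was highest in control skin with DMSO, at 473 to 651 CPM in Cre-negative and 463 and 480 in wild-type libraries, against 235 to 373 in knockout DMSO skin. Under imiquimod the sum was 265 and 287 CPM in Cre-negative, 269 and 323 in wild-type and 350 and 404 in knockout skin. Members known from skeletal muscle weigh heavily in these sums. Klhl31, Klhl41 and Klhl33 held 115, 89.4 and 68.9 of the 651 CPM in Cre-negative DMSO replicate 1. In knockout DMSO replicate 2 they held 14.3, 46.3 and 5.05 of the 373 CPM. The sum is thus not a level shared by the whole family. With DMSO, 10 of the 39 tested members fell in knockout against Cre-negative skin and 0 rose, where 15.7% of all 16027 tested genes fell, 14% rose and 29.6% did either. Members that fell were Klhl33, Klhl31, Kbtbd12, Klhl30, Kbtbd11, Klhl24, Klhl13, Klhl5, Kbtbd7 and Klhl26. The median log2 fold change over the 39 was -0.40, against -0.06 over all tested genes, and 30 of the 39 had a negative value. By edgeR's unadjusted p under 0.05, 1 member rose and 14 fell. DESeq2 called 0 rises and 10 falls of members, and 33.9% of all genes. With the replicate number as a block, 1 rose and 8 fell, where 29.3% of all genes were called. Klhl32 passed in that fit (log2 2.60, adjusted p = 0.0462), and Klhl26 (adjusted p = 0.0515) and Kbtbd7 (adjusted p = 0.0539) did not. The count of calls was 5 without knockout DMSO replicate 3 and 5 without Cre-negative DMSO replicate 1, and Klhl5, Kbtbd11, Klhl31, Klhl33 and Klhl24 passed in every fit.

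Imiquimod lowered members in both controls and raised members in the knockout. In Cre-negative skin 6 members fell and 0 rose, where 10.1% of all tested genes fell and 8.15% rose. In wild-type skin 10 fell and 0 rose, where 11.8% of all genes fell and 9.59% rose. In knockout skin 6 rose and 1 fell, where 8.56% of all genes rose and 2.52% fell. By edgeR's unadjusted p, the members that rose numbered 0 in Cre-negative and 1 in wild-type skin, and DESeq2 called 0 and 1. Median log2 fold changes of the members were -0.48 in Cre-negative, -0.58 in wild-type and 0.23 in knockout skin. Over all tested genes the same medians were -0.06, -0.09 and -0.04.

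These counts rested on few libraries, and the number of all genes called also changed when a library was left out. In Cre-negative skin 3 members were called without DMSO replicate 1 or imiquimod replicate 2 and 2 without imiquimod replicate 1. In wild-type skin the number was 4 without DMSO replicate 1 or imiquimod replicate 1 and 3 without DMSO replicate 2. In knockout skin it was 4 without DMSO replicate 1, 3 without DMSO replicate 3 and 1 without imiquimod replicate 1. The knockout DMSO libraries were female and the knockout imiquimod libraries male, and with a sex term in the fit 1 member, Klhl6, rose and 0 fell. Of all 16027 genes, 206 rose and 4 fell in that fit, or 1.31%. Scaled by library size alone, 5 members rose and 0 fell in knockout skin, where 1429 and 186 of all genes did, or 10.1%.

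The response to imiquimod differed between knockout and Cre-negative skin, as tested by the interaction term, for 12 of the 39 members, where 23.6% of all genes passed. It was more positive in the knockout for 11 of them, where 14% of all genes had such a difference, and more negative for 1, where 9.63% did. With imiquimod in both, 7 members were higher in knockout than in Cre-negative skin and 1 was lower, where 11.6% and 6.33% of all genes were. The interaction and the comparisons within a treatment share their libraries, so their calls are not separate evidence. Scaled by library size alone, 9 members were higher and 0 lower with imiquimod, where 2443 and 496 of all 16027 genes were. That comparison held 0 calls without Cre-negative imiquimod replicate 1 or 2, 1 without knockout imiquimod replicate 1 and 5 without replicate 2, and the interaction held 5 without knockout and 6 without Cre-negative imiquimod replicate 1. Cre-negative and wild-type skin with DMSO differed for 0 members by edgeR, which called 0% of all genes, and for 0 by DESeq2, which called 144 genes (0.898%). By edgeR's unadjusted p under 0.05 they differed for 1 member, Klhl6.

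**Figure D1:**
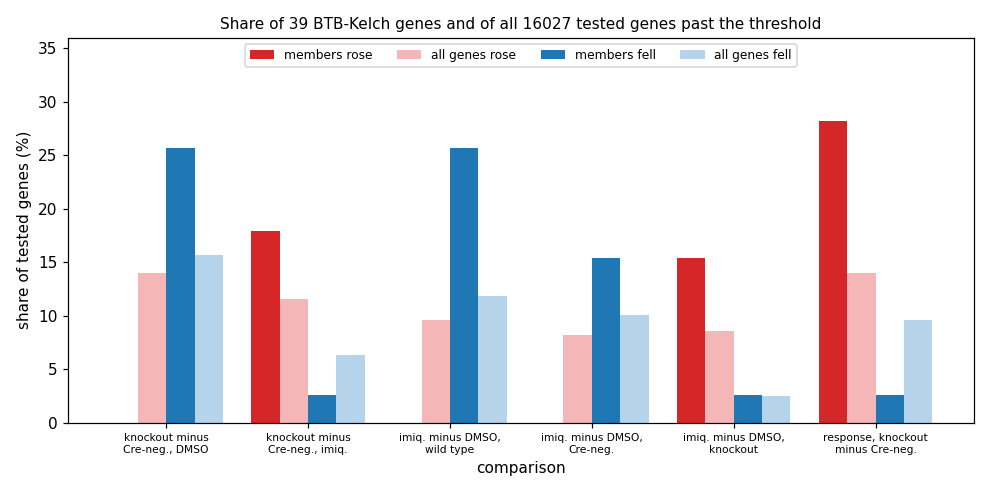
Share in percent (y axis) of the 39 tested BTB-Kelch genes (dark bars) and of all 16027 tested genes (pale bars) that rose (red) or fell (blue) at an adjusted p under 0.05, for 6 comparisons (x axis). No member rose in 3 comparisons, knockout against Cre-negative with DMSO and imiquimod in wild-type or Cre-negative skin. In every comparison that involves knockout imiquimod skin more members rose than fell. For the interaction, a rise is a more positive response in the knockout.

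**Figure D2:**
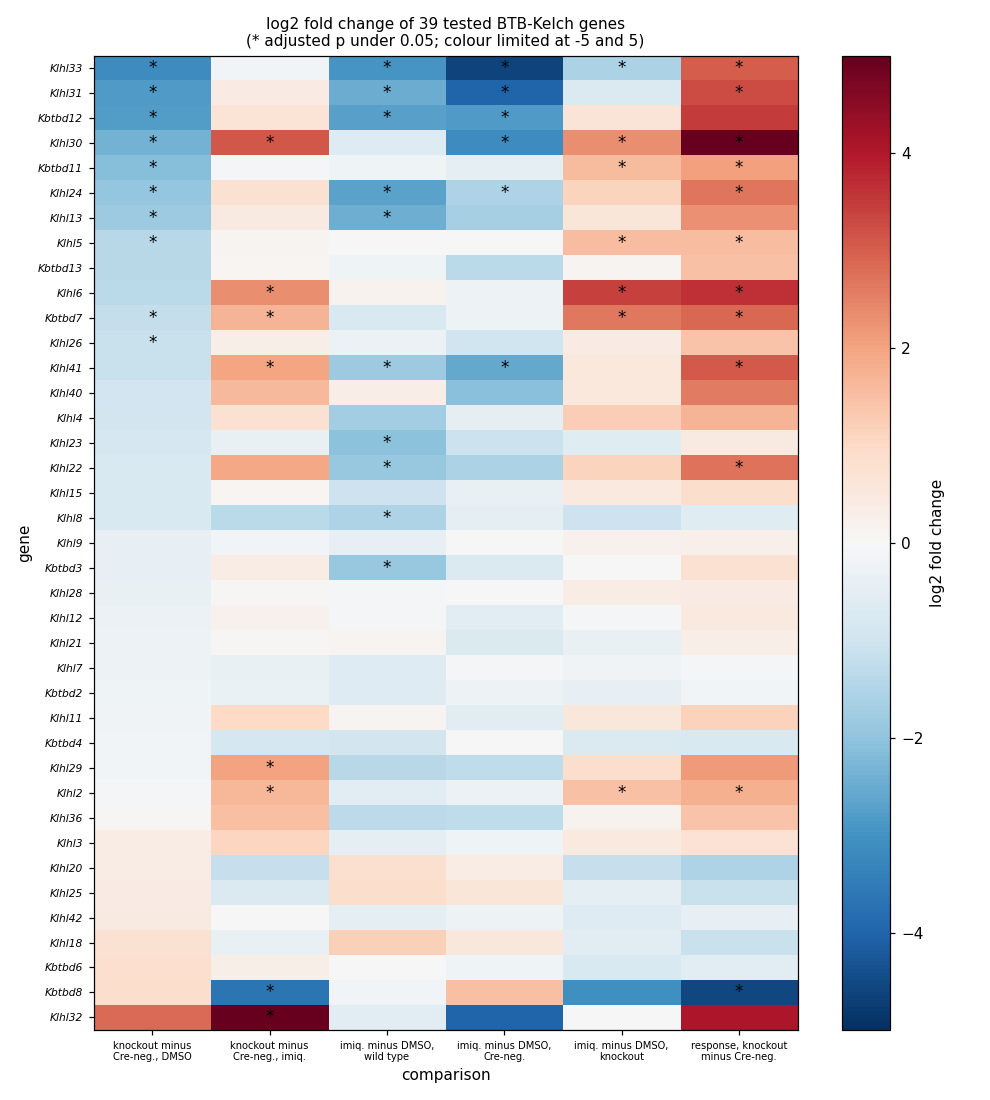
Log2 fold change (colour, limited at -5 and 5) of each tested member (rows, ordered by the knockout effect with DMSO) in 6 comparisons (columns), with a star where the adjusted p was under 0.05. Blue leads for the knockout with DMSO and for imiquimod in both controls, and red leads in the interaction column. Klhl32 had no counts in Cre-negative imiquimod skin, so its colours in the columns that use this group, the interaction among them, have no firm size.

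Members known from skeletal muscle carried the largest falls. This set, Klhl30, Klhl31, Klhl33, Klhl40, Klhl41, Kbtbd12 and Kbtbd13, was put together with the data in view and so supports nothing by its direction. KLHL40 and KLHL41 stabilise the thin filament proteins nebulin and leiomodin 3, and loss of either, or mutation of KBTBD13, causes nemaline myopathy. KLHL31 is a sarcomere-associated protein needed for muscle growth after birth. Promoter sequences are shown for 4 of them because their upstream bases hold short motifs of known muscle factors. Klhl33, Klhl41 and Kbtbd12 fell with imiquimod in both control genotypes, and Klhl40 passed no test. RefSeq gave the 250 bases before the start, on build GRCm38.p6, for 35 of the 43 members and for 6 of these 7. Capitals mark the E-box CAGCTG, which MyoD binds, and the MEF2 site, both searched on both strands with no overlap between them.
Klhl41: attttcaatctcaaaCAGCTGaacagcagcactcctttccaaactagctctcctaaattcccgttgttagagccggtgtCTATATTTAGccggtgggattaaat
Kbtbd12: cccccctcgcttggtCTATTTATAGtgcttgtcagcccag
Klhl33: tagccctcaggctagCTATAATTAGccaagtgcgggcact
Klhl40: gagaaagcctctgccCAGCTGtcct

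These stretches lie at chr2:69669978-69670081 on the plus strand for Klhl41, chr6:88627496-88627535 on the minus strand for Kbtbd12, chr14:50897509-50897548 on the minus strand for Klhl33 and chr9:121777582-121777606 on the plus strand for Klhl40. Each is printed in the direction of its gene. The MEF2 site began 63 bases before the start of Klhl41, 91 before Kbtbd12 and 50 before Klhl33. The E-box began 127 bases before Klhl41 and 10 before Klhl40. A MEF2 site was present in 3 of the 6 muscle members and in 0 of the 29 other members with a promoter, and in 2.92% of 32841 promoters of the same length. The E-box CAGCTG was in 2 of the 6, in 6 of the 29 and in 13.0% of all, and the CArG box of serum response factor was in 0 members and in 1.47% of all. These matches are letters in a window and say nothing of binding.

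Klhl33 stood at 68.9, 35.5 and 33.3 CPM in the Cre-negative DMSO libraries, at 42.8 and 47.4 in the wild type and at 4.08, 5.05 and 6.00 in the knockout. With imiquimod it was at 2.87 and 1.08 CPM in the Cre-negative, at 5.70 and 5.84 in the wild type and at 1.37 and 2.04 in the knockout. No library outside the DMSO controls was thus above 6.00 CPM, and knockout and control libraries with DMSO did not overlap. The log2 fold change was -3.16 ± 0.39 for knockout against Cre-negative with DMSO (adjusted p = 9.4e-05), and imiquimod changed it by -4.61 ± 0.51 in Cre-negative (adjusted p = 8.1e-05) and by -2.97 ± 0.47 in wild-type skin (adjusted p = 0.00123). In knockout skin it fell further by 1.59 ± 0.46 on the log2 scale (adjusted p = 0.0399), a call that was lost under 8 of 14 alternatives, among them 4 of the 5 left-out libraries and the sex term (adjusted p = 0.195).

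Klhl31 followed the same order, with 115, 65.3 and 41.8 CPM in Cre-negative, 72.5 and 49.0 in wild-type and 10.2, 14.3 and 6.74 in knockout DMSO skin. The imiquimod libraries held 4.88 and 4.44 CPM of it in the Cre-negative, 12.3 and 9.19 in the wild type and 5.93 and 6.46 in the knockout. Again the DMSO controls stood above all other libraries. Its log2 fold change was -2.84 ± 0.40 in the knockout with DMSO (adjusted p = 2.2e-04), -3.99 ± 0.50 with imiquimod in Cre-negative skin (adjusted p = 2.1e-04) and -2.50 ± 0.47 in wild-type skin (adjusted p = 0.00334). In knockout skin the imiquimod effect was -0.74 ± 0.43 and did not pass the test (adjusted p = 0.302).

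Klhl41 stood at 89.4, 68.0 and 44.8 CPM in Cre-negative, 58.4 and 42.2 in wild-type and 27.8, 46.3 and 18.9 in knockout DMSO skin. Knockout replicate 2 lay inside the control range, and the log2 fold change of -1.12 ± 0.48 did not pass the test (adjusted p = 0.0904). Imiquimod brought it to 6.89 and 15.5 CPM in Cre-negative skin, a fall of 2.58 ± 0.59 on the log2 scale (adjusted p = 0.00910), and to 17.5 and 11 in wild-type skin (log2 -1.81 ± 0.59, adjusted p = 0.0436). In knockout imiquimod skin it was at 67.5 and 20.5 CPM, which was 1.96 ± 0.60 above Cre-negative skin on the log2 scale (adjusted p = 0.0377). Without knockout imiquimod replicate 1 that difference was 0.86 (adjusted p = 0.484). The call in wild-type skin was lost without any 1 of its 4 libraries.

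Klhl40 was spread widely within groups and passed no test. With DMSO its levels were 56.0, 30.9 and 24.0 CPM in Cre-negative, 18.6 and 19.8 in wild-type and 28.5, 25 and 5.10 in knockout skin. With imiquimod they were 4.02 and 13.3 CPM in Cre-negative, 39.9 and 8.65 in wild-type and 42.2 and 12.5 in knockout skin. Its knockout effect with DMSO was -0.94 ± 0.70 (adjusted p = 0.328) and the groups overlapped.

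Klhl30 was lower in knockout DMSO skin, at 0.764, 1.36 and 1.04 CPM, than in Cre-negative skin, at 8.67, 4.65 and 3.64, and the wild type held 3.81 and 4.95. The log2 fold change was -2.37 ± 0.64 (adjusted p = 0.0144), which did not pass with a sex term or without knockout DMSO replicate 3 or Cre-negative DMSO replicate 1. Imiquimod took it to 0.287 and 0.875 CPM in Cre-negative skin (log2 -3.14 ± 0.80, adjusted p = 0.0160), to 3.67 and 1.87 in the wild type (log2 -0.65 ± 0.71, adjusted p = 0.538) and to 9.51 and 1.42 in the knockout. In the knockout this was a rise of 2.32 ± 0.69 (adjusted p = 0.0441) that rested on replicate 1, and without that library it was 0.37 (adjusted p = 0.871). The excess of knockout over Cre-negative skin with imiquimod, 3.10 ± 0.83 (adjusted p = 0.0210), was 1.15 without the same library (adjusted p = 0.459).

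Kbtbd12 was low throughout, from 0.0886 to 2.74 CPM, and its DMSO controls, from 0.947 CPM up, stood above every other library. It fell by 2.80 ± 0.72 on the log2 scale in knockout DMSO skin (adjusted p = 0.0108), by 2.84 ± 0.84 with imiquimod in Cre-negative skin (adjusted p = 0.0329) and by 2.70 ± 0.80 in wild-type skin (adjusted p = 0.0296). With a sex term the knockout value of Kbtbd12 was -2.02 (adjusted p = 0.195), and it did not pass without knockout DMSO replicate 3 or Cre-negative DMSO replicate 1. Its fall with imiquimod was lost without any 1 of the 4 libraries in wild-type skin and without 4 of the 5 in Cre-negative skin. Kbtbd13 ran from 0.143 to 1.53 CPM and passed no test, and its knockout effect with DMSO was -1.39 ± 0.60 (adjusted p = 0.0992).

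The general muscle genes of the same libraries moved with these members. Over a list of 22 skeletal muscle genes, the summed level was 33720, 18279 and 13117 CPM in Cre-negative, 19016 and 14502 in wild-type and 5318, 5859 and 3401 in knockout DMSO skin. Under imiquimod the sum was 1830 and 2927 CPM in Cre-negative, 7106 and 2940 in wild-type and 7665 and 2713 in knockout skin. None of the 22 was at 0 in any group. In knockout DMSO skin 18 of the 22 fell, with imiquimod 22 of 22 fell in Cre-negative and 13 in wild-type skin, and 0 passed the test in either direction in the knockout. In whole skin, fewer cells of a type and less RNA per cell cannot be told apart.

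Set against the summed muscle genes, the members did not all keep one ratio. Klhl31 amounted to 3.19 to 3.57 CPM per 1000 CPM of the 22 muscle genes in Cre-negative DMSO libraries, 3.38 and 3.81 in the wild type and 1.92 to 2.44 in the knockout. Klhl33 stood at 1.94 to 2.54 in Cre-negative, 2.25 and 3.27 in wild-type and 0.766 to 1.77 in knockout DMSO libraries. Klhl41 went the other way, with 2.65 to 3.72 in Cre-negative, 2.91 and 3.07 in wild-type and 5.22 to 7.90 in knockout DMSO libraries, and 7.54 and 8.80 in the knockout with imiquimod. For each of these 3 genes the knockout and control ranges with DMSO did not overlap. Klhl30 and Kbtbd12 overlapped between the same groups. These ratios are a description of the libraries and were not tested.

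**Figure D3:**
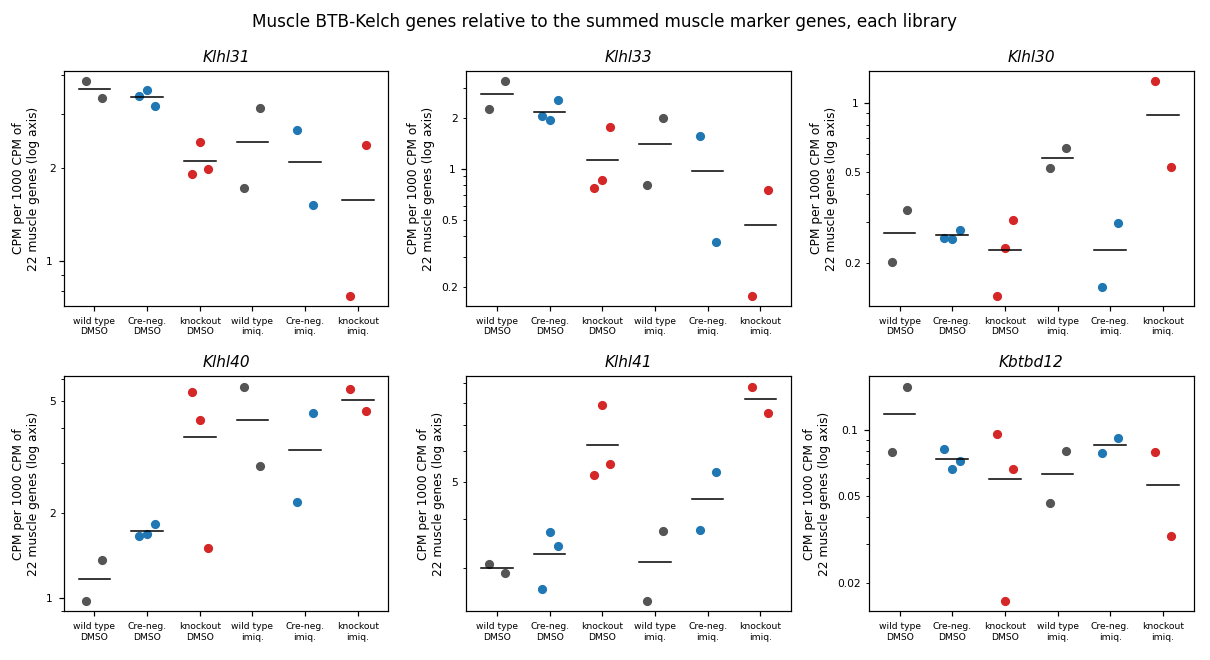
CPM of 6 muscle members per 1000 CPM of the 22 summed muscle genes (y axis, log scale) in each of the 14 libraries (points), by group (x axis), with the group mean as a line. Klhl31 and Klhl33 sit lower and Klhl41 sits higher in the knockout DMSO libraries than in both DMSO control groups, and Klhl30 and Kbtbd12 overlap between them.

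Klhl24, the receptor for keratin 14, was lower in knockout skin and in imiquimod-treated control skin. Its levels with DMSO were 25.1, 27.9 and 32.8 CPM in Cre-negative, 22.3 and 22.1 in wild-type and 4.33, 11.6 and 6.23 in knockout skin. With imiquimod they were 7.89 and 11.4 CPM in Cre-negative, 1.79 and 5.22 in wild-type and 15.3 and 17.6 in knockout skin. The controls with DMSO stood above all other libraries, and among imiquimod libraries those of the knockout were highest. Log2 fold changes were -1.93 ± 0.41 for the knockout with DMSO (adjusted p = 0.00354), -1.56 ± 0.46 for imiquimod in Cre-negative skin (adjusted p = 0.0331) and -2.68 ± 0.52 in wild-type skin (adjusted p = 0.00366). The call in Cre-negative skin was lost without any 1 of its 5 libraries and with a sex term (adjusted p = 0.0781). In knockout skin imiquimod moved it by 1.13 ± 0.44, which did not pass (adjusted p = 0.116), and the difference of the knockout and Cre-negative responses was 2.69 ± 0.64 (adjusted p = 0.0103).

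The RNA of its substrate Krt14, the keratin of basal keratinocytes, rose in the 3 comparisons in which Klhl24 fell. Krt14 rose by 2.65 ± 0.37 on the log2 scale in knockout DMSO skin (adjusted p = 2.2e-04), by 2.10 ± 0.39 with imiquimod in Cre-negative skin (adjusted p = 0.00259) and by 2.97 ± 0.46 in wild-type skin (adjusted p = 0.00107). Its response in the knockout was 3.43 ± 0.57 lower than in Cre-negative skin (log2 -3.43, adjusted p = 0.00199). Of 6 suprabasal keratinocyte genes, 4 fell in knockout DMSO skin, with summed levels of 1116 to 1918 CPM against 14010 to 26906 in Cre-negative skin, and the muscle genes given above also fell there. Klhl24 amounted to 2.53 to 10.4 CPM per 1000 CPM of the suprabasal genes in knockout and 1.04 to 1.79 in Cre-negative DMSO libraries. With imiquimod the same ratio was 30.8 and 57.0 in knockout and 0.800 and 2.21 in Cre-negative libraries. Per 1000 CPM of 6 basal keratinocyte genes it was 0.225 to 0.751 in knockout and 5.35 to 8.91 in Cre-negative DMSO libraries. The part of the keratinocyte and muscle shifts in the Klhl24 values was not tested.

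**Figure D4:**
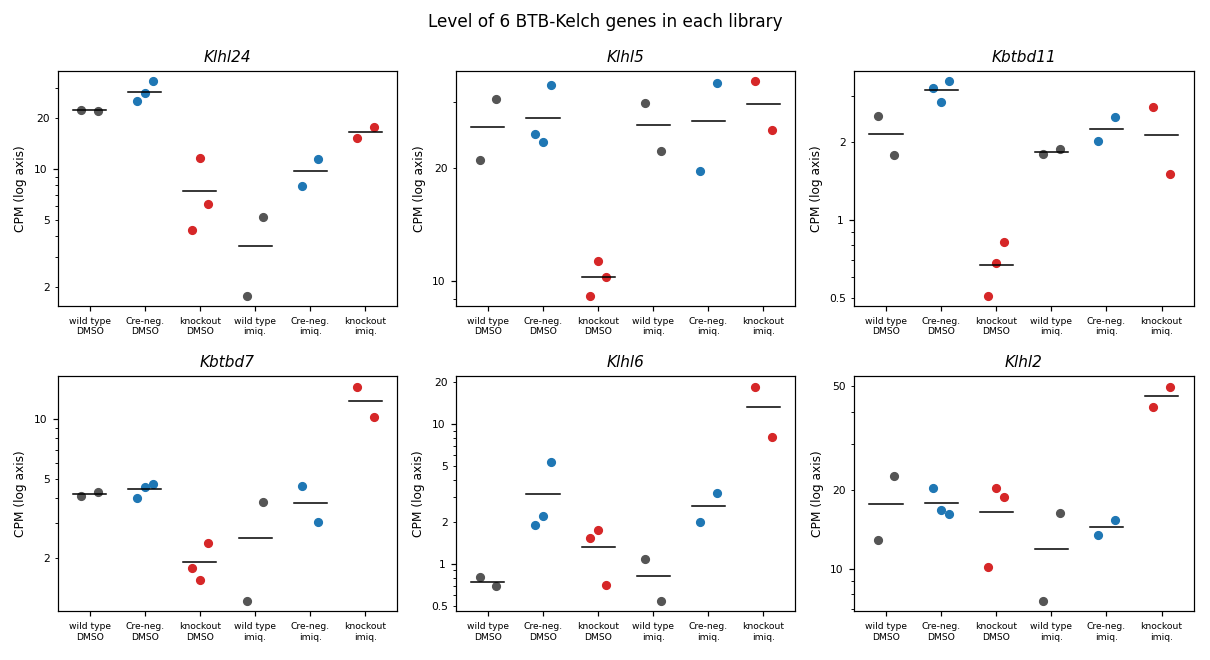
CPM (y axis, log scale) of 6 members in each of the 14 libraries (points), by group (x axis), with the group mean as a line. For Klhl24, Klhl5, Kbtbd11 and Kbtbd7 the 3 knockout DMSO libraries lie below both DMSO control groups, and for Kbtbd7, Klhl6 and Klhl2 both knockout imiquimod libraries lie above all others.

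Klhl5 and Kbtbd11 were low in knockout DMSO skin alone among the 6 groups. Klhl5 stood at 9.17, 11.4 and 10.3 CPM there, and all other libraries lay between 19.7 and 34.0. The log2 fold change against Cre-negative skin was -1.40 ± 0.30 (adjusted p = 0.00352), and imiquimod raised it in the knockout by 1.53 ± 0.32 (adjusted p = 0.00799). In Cre-negative and wild-type skin its response to imiquimod was -0.02 ± 0.32 and 0.01 ± 0.35. Kbtbd11 stood at 0.509, 0.679 and 0.817 CPM in knockout DMSO skin and at 1.51 to 3.42 in all other libraries. It fell by 2.14 ± 0.39 on the log2 scale (adjusted p = 0.00146) and rose with imiquimod in the knockout by 1.57 ± 0.43 (adjusted p = 0.0309). For both genes the response to imiquimod differed between knockout and Cre-negative skin, by 1.55 ± 0.46 for Klhl5 (adjusted p = 0.0280) and by 2.05 ± 0.59 for Kbtbd11 (adjusted p = 0.0249). The falls with DMSO passed under every alternative run, and the rises did not (Klhl5 adjusted p = 0.139 and Kbtbd11 adjusted p = 0.429 without knockout imiquimod replicate 1).

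Kbtbd7 and Kbtbd6 are near-identical neighbours on chromosome 14, 20798 bases apart, and their proteins act together on the Rac activator TIAM1. The sources used here do not say how reads that fit both were counted, and their separate levels are uncertain. Kbtbd7 was at 4.03, 4.54 and 4.74 CPM in Cre-negative, 4.11 and 4.31 in wild-type and 1.78, 1.55 and 2.40 in knockout DMSO skin. With imiquimod it was at 4.59 and 3.03 CPM in Cre-negative, 1.22 and 3.82 in wild-type and 14.5 and 10.2 in knockout skin. Knockout libraries were thus the lowest with DMSO and the highest with imiquimod. The rise with imiquimod in the knockout was 2.65 ± 0.45 on the log2 scale (adjusted p = 0.00208), and the difference from the Cre-negative response was 2.89 ± 0.64 (adjusted p = 0.00763). The fall with DMSO, -1.18 ± 0.41 (adjusted p = 0.0457), was lost without any 1 of the 6 libraries compared. Kbtbd6 ran from 0.10 to 1.78 CPM and passed no test.

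Klhl6 and Klhl14 are known from B cells, and KLHL6 targets the RNA-binding protein Roquin-2 there. Klhl6 stood at 18.6 and 8.06 CPM in knockout imiquimod skin, above the 2.01 and 3.23 of Cre-negative and the 1.08 and 0.545 of wild-type skin. With DMSO it was at 1.90, 2.19 and 5.39 CPM in Cre-negative, 0.803 and 0.693 in wild-type and 1.53, 1.75 and 0.705 in knockout skin. Only the knockout imiquimod libraries exceeded 5.39 CPM. Imiquimod raised it in the knockout by 3.42 ± 0.59 on the log2 scale (adjusted p = 0.00246), and with imiquimod it was 2.32 ± 0.63 above Cre-negative skin (adjusted p = 0.0228). Without knockout imiquimod replicate 1 these values were 2.69 (adjusted p = 0.0602) and 1.60 (adjusted p = 0.234).

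Of 9 B-cell genes, 2 could be tested, and neither passed with imiquimod in the knockout. The summed level of the 9 was 0.255, 0.873 and 0.395 CPM in knockout DMSO skin and 3.20 and 0.886 in knockout imiquimod skin, where Mzb1 was at 0, and it ran from 1.27 to 16.1 in the other libraries. Macrophage genes were highest in the same 2 libraries: 8 genes summed to 2325 and 1248 CPM there and to 170 to 702 in the other 12 libraries, and 6 of the 8 rose with imiquimod in the knockout. None of the 8 was at 0 in any group. Of 10 neutrophil genes, 8 rose with imiquimod in the knockout and 9 in each control genotype. They summed to 114920 and 54076 CPM in knockout imiquimod skin and to 64103 to 192860 in the other imiquimod libraries. S100a8 and S100a9 made up most of these sums, at 81713 and 27814 CPM in knockout imiquimod replicate 1. With imiquimod, 7 of the 10 were higher in knockout than in Cre-negative skin and 0 were lower. The neutrophil genes Ngp, Mmp8, Ly6g and Retnlg, named after their values were seen, stood apart in the 2 knockout imiquimod libraries. Ngp was at 1145 and 187 CPM there against at most 0.861 elsewhere, and Mmp8 at 2208 and 698 against at most 23.9. Ly6g was at 81.3 and 30.4 CPM against at most 1.65, and Retnlg at 1416 and 788 against at most 16.7. Over 6 endothelial genes, 0 rose with imiquimod in the knockout and 5 were higher there than in Cre-negative imiquimod skin, with sums of 168 and 80.7 CPM against 24.7 to 87.8 in the other libraries. Klhl6 amounted to 7.99 and 6.46 CPM per 1000 CPM of the macrophage genes in knockout imiquimod skin, 7.87 and 4.60 in Cre-negative imiquimod skin and 4.44 to 9.61 in Cre-negative DMSO skin. In the other groups the ratio was 2.81 to 4.91 in knockout DMSO, 3.80 to 4.09 in wild-type DMSO and 1.83 to 2.38 in wild-type imiquimod skin. All of these lay below the knockout imiquimod ratios, and knockout DMSO skin overlapped both Cre-negative groups. The part of these cell types in the Klhl6 values was not tested. Klhl14 had 13 counts in all and was not tested.

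KLHL2 and KLHL3 mark WNK kinases, which control salt transport, for degradation. Klhl2 stood at 41.7 and 49.9 CPM in knockout imiquimod skin and at 7.53 to 22.6 in every other library. Values with DMSO were 20.5, 16.7 and 16.2 CPM in Cre-negative, 12.8 and 22.6 in wild-type and 10.2, 20.4 and 18.9 in knockout skin. Imiquimod left it at 13.5 and 15.3 CPM in Cre-negative and at 7.53 and 16.4 in wild-type skin. Both knockout imiquimod libraries thus stood above all others, and the Cre-negative imiquimod libraries lay below the Cre-negative DMSO ones without passing the test. The rise with imiquimod in the knockout was 1.46 ± 0.38 (adjusted p = 0.0255) and the excess over Cre-negative skin with imiquimod was 1.66 ± 0.44 (adjusted p = 0.0188). Leaving out either knockout imiquimod library ended both calls, and the log2 values then ranged from 1.49 to 2.08 for the excess over all alternatives. Klhl3 stood at 0.671, 0.821 and 0.729 CPM in Cre-negative, 0.702 and 0.990 in wild-type and 0.509, 1.26 and 0.930 in knockout DMSO skin. With imiquimod its levels were 0.861 and 0.471, 0.282 and 1.01, and 1.37 and 1.33 CPM in the same order, and no comparison passed.

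Receptors that act in cell division fell into 2 kinds. KLHL9, KLHL13 and KLHL21 move Aurora B along the dividing spindle, KLHL18 acts on Aurora A, and KLHL22 removes Polo-like kinase 1 from kinetochores. Klhl13, an X-linked gene, was at 4.31, 2.30 and 4.88 CPM in Cre-negative, 2.41 and 4.26 in wild-type and 1.53, 1.36 and 0.620 in knockout DMSO skin. In imiquimod libraries it was at 0.430 and 1.82 CPM in Cre-negative, 0.471 and 0.779 in wild-type and 2.36 and 0.885 in knockout skin. It fell by 1.83 ± 0.59 in the knockout with DMSO (adjusted p = 0.0315) and with imiquimod in wild-type skin (log2 -2.45 ± 0.72, adjusted p = 0.0291). In the first of these contrasts the libraries also differed in sex, and with a sex term the value was -2.18 (adjusted p = 0.0904). The wild-type call was lost without any 1 of its 4 libraries.

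Klhl22 stood at 2.24, 1.48 and 1.82 CPM in Cre-negative, 2.11 and 2.72 in wild-type and 1.78, 0.582 and 1.10 in knockout DMSO skin. In imiquimod libraries it was at 0.430 and 0.740 CPM in Cre-negative, 0.989 and 0.234 in wild-type and 2.82 and 1.86 in knockout skin. The knockout libraries were the highest of those with imiquimod. It fell by 1.90 ± 0.63 with imiquimod in wild-type skin (adjusted p = 0.0471), a call that ended under RLE scaling among other settings, and its response was 2.70 ± 0.85 more positive in knockout than in Cre-negative skin (adjusted p = 0.0363). The latter was lost under 10 of 19 alternatives, which were 9 of the 10 left-out libraries and the sex term (Klhl22 adjusted p = 0.110).

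The other mitotic receptors passed no test. Klhl9 stood at 23.9, 21.6 and 24.5 CPM in Cre-negative, 12.9 and 16.8 in wild-type and 14.5, 22.2 and 16.0 in knockout DMSO skin, and at 23.8 and 21.7, 5.84 and 16.5, and 15.9 and 25.6 with imiquimod. Klhl21 was at 76.6, 74.3 and 59.9 CPM in Cre-negative, 45.0 and 53.3 in wild-type and 31.1, 70.8 and 71.8 in knockout DMSO skin, and at 57.8 and 27.1, 36.1 and 71.1, and 36.4 and 52.4 with imiquimod. Klhl18 was at 12.5, 16.9 and 13.3 CPM in Cre-negative, 16.6 and 9.90 in wild-type and 13.5, 27.1 and 30.8 in knockout DMSO skin, and at 29.1 and 12.8, 27.3 and 33.0, and 14.1 and 18.1 with imiquimod. The log2 value of Klhl18 nearest to the threshold was 1.19 ± 0.46, imiquimod in wild-type skin (adjusted p = 0.0769). Klhl9 and Klhl13 encode closely related proteins, and the sources used here do not say how reads shared by them were counted.

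Receptors of secretion, signalling and metabolism mostly did not pass. KLHL12 acts on the COPII coat protein SEC31 in collagen export and on Dishevelled in Wnt signalling, and Klhl12 stood at 6.37, 7.06 and 7.14 CPM in Cre-negative, 3.61 and 6.88 in wild-type and 3.06, 6.11 and 7.27 in knockout DMSO skin. In imiquimod libraries it was at 3.73 and 5.38, 3.86 and 6.31, and 4.11 and 6.64 CPM in the same order. KLHL20 acts on the death-associated kinase DAPK1 and on PML, and Klhl20 stood at 4.31, 3.78 and 5.39, 2.41 and 4.26, and 5.86, 4.95 and 6.60 CPM with DMSO. With imiquimod Klhl20 was at 8.03 and 3.63 CPM in Cre-negative, 6.83 and 4.91 in wild-type and 1.90 and 3.28 in knockout skin, where both libraries lay below all other imiquimod libraries. The difference from Cre-negative skin was -1.15 ± 0.48 and did not pass (adjusted p = 0.120).

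KLHL25 targets the translation repressor 4E-BP1 and ATP-citrate lyase. Klhl25 stood at 6.26, 5.36 and 5.39 CPM in Cre-negative, 6.92 and 7.92 in wild-type and 7.13, 6.11 and 9.44 in knockout DMSO skin, and at 7.60 and 9.82, 19.0 and 8.03, and 4.79 and 5.93 with imiquimod. KBTBD2 limits the p85 subunit of PI3 kinase, and Kbtbd2 stood at 25, 32.6 and 39.3 CPM in Cre-negative, 43.6 and 39.8 in wild-type and 16.0, 32.5 and 34.4 in knockout DMSO skin, and at 29.3 and 24.4, 12 and 41.5, and 17.7 and 24.6 with imiquimod. Neither gene passed a test. Kbtbd4, whose protein acts on the CoREST corepressor, stood at 2.85, 3.17 and 3.57, 3.61 and 4.31, and 2.29, 2.81 and 3.35 CPM with DMSO, and at 2.87 and 3.63, 1.60 and 2.65, and 1.14 and 2.39 with imiquimod. It passed no test either, and it shares 158 exon bases with the antisense gene Ndufs3, which had 4399 counts against its 622, so its reads are uncertain where strand was not used.

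KBTBD8 modifies the ribosome biogenesis factors TCOF1 and NOLC1 in neural crest formation. Kbtbd8 was the member that fell in knockout against Cre-negative skin with imiquimod, at 0.0761 and 0.531 CPM against 3.01 and 4.57, with 0.188 and 3.82 in the wild type. With DMSO it was at 1.29, 1.42 and 1.38 CPM in Cre-negative, 0.903 and 3.22 in wild-type and 0.764, 3.30 and 2.96 in knockout skin. The log2 difference with imiquimod was -3.67 ± 1.18 (adjusted p = 0.0458), and leaving out any 1 of the 4 libraries ended the call. The response to imiquimod differed by -4.54 ± 1.43 between knockout and Cre-negative skin (adjusted p = 0.0354). That interaction call for Kbtbd8 was lost under 11 of 19 alternatives, among them library size alone and the sex term (adjusted p = 0.128).

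Of the remaining members that passed a test, Klhl29 and Klhl32 were higher in knockout than in Cre-negative skin with imiquimod. Klhl29 was at 4.11 and 7.00 CPM against 0.717 and 1.88, with 1.51 and 2.34 in the wild type, and the log2 difference was 2.01 ± 0.62 (adjusted p = 0.0396). That call for Klhl29 was lost without any 1 of the 4 libraries and with a sex term (adjusted p = 0.0530). DMSO libraries held 1.53 to 6.68 CPM of it in all 3 genotypes. Klhl32 had 0 counts in both Cre-negative imiquimod libraries and 0.0761 and 1.86 CPM in the knockout ones. Against a floor of 3 counts over the group, which covers counting error only, its mean was at least 7.04-fold higher (adjusted p = 0.0472), and 21 of the 22 counts behind it came from replicate 2. The median log2 fold change of the 39 members in this comparison was 0.28, against 0.02 over all tested genes. The bound on Klhl32 lies above that median and so could not move it.

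Klhl26 stood at 2.04, 3.20 and 3.95 CPM in knockout DMSO skin against 6.82, 8.15 and 5.83 in Cre-negative and 6.82 and 8.07 in wild-type skin, and with imiquimod it ran from 2.49 to 7.30. Its fall of 1.12 ± 0.38 (adjusted p = 0.0392) was lost without any 1 of the 6 libraries. In wild-type skin with imiquimod, Klhl23, Kbtbd3 and Klhl8 also fell. Klhl23 went from 8.33 and 15.9 to 3.11 and 2.81 CPM (log2 -2.03 ± 0.48, adjusted p = 0.0103). Kbtbd3 went from 2.91 and 3.32 to 0.659 and 1.01 CPM (log2 -1.91 ± 0.60, adjusted p = 0.0383). Klhl8 went from 10.8 and 13.9 to 2.78 and 5.69 CPM (log2 -1.56 ± 0.52, adjusted p = 0.0489). The call was lost without any 1 of the 4 libraries for Kbtbd3 and without 3 of the 4 for Klhl23 and Klhl8. In Cre-negative skin the same 3 genes had values of -1.06, -0.71 and -0.43, none past the threshold, and the difference between the 2 control genotypes' responses was not tested.

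Klhl4, Klhl7, Klhl11, Klhl15, Klhl28, Klhl36 and Klhl42 passed no test in any comparison. KLHL7 is mutated in retinitis pigmentosa, KLHL15 controls a subunit of protein phosphatase 2A, and KLHL42 acts on the microtubule-severing enzyme katanin. Klhl28 ran from 6.11 to 18.2 CPM, Klhl7 from 2.92 to 9.80, and the others from 0.143 (Klhl4) up to 2.83 CPM (Klhl11). The untested Klhl10, a gene of sperm formation, had 16 counts in all, Klhl35 had 22 and Klhl38 had 41.

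Among the genes that build and regulate the ligase, Cul3 had a log2 fold change of -0.81 ± 0.30 in knockout DMSO skin, which did not pass (adjusted p = 0.0585), and passed in no other comparison. Cul3 levels with DMSO were 51.2, 75.5 and 70.4 CPM in the knockout, 108, 122 and 116 in Cre-negative and 105 and 62.7 in wild-type skin, so knockout and wild-type libraries overlapped. Rbx1 did not pass the test with DMSO (-0.03 ± 0.26, adjusted p = 0.946) and was 1.03 ± 0.32 lower in knockout than in Cre-negative skin with imiquimod (log2 -1.03, adjusted p = 0.0387). Of 27 genes of the CUL3 and neddylation machinery, 7 rose and 1 fell in the knockout with DMSO, where 14% and 15.7% of all genes did. Ube2m, the NEDD8-conjugating enzyme of CUL3, rose by 1.41 ± 0.25 (adjusted p = 0.00133), and the neddylation co-factors Dcun1d5 and Dcun1d4 by 1.25 ± 0.28 (adjusted p = 0.00451) and 1.29 ± 0.34 (adjusted p = 0.0126). Cand2, a muscle-enriched cullin exchange factor, fell by 1.83 ± 0.34 (adjusted p = 0.00149).

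With imiquimod, rises numbered 4 of the 27 in Cre-negative, 2 in wild-type and 0 in knockout skin, with 1 fall in each. Over all genes the shares that rose were 8.15%, 9.59% and 8.56%, and those that fell were 10.1%, 11.8% and 2.52%. Dcun1d3 rose in both controls, by 1.34 ± 0.29 in Cre-negative and 1.22 ± 0.33 in wild-type skin, and Cand2 fell in both, by 3.37 ± 0.44 and 2.28 ± 0.41. Cops7b, a subunit of the COP9 signalosome, fell in the knockout by 1.39 ± 0.29 (adjusted p = 0.00806). The interaction passed for 6 of the 27, a share near the 23.6% of all genes, and of these Cand2 (3.20 ± 0.57) was more positive in the knockout, and Cops6 (-1.34 ± 0.35), Cops9 (-1.96 ± 0.56) and Cops7b (-1.37 ± 0.40) were among the 5 that were more negative.

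Other BTB proteins that serve CUL3 were also lower where they moved with DMSO. Among BTB-Kelch genes with other names, Ivns1abp fell in the knockout (log2 -0.76 ± 0.25, adjusted p = 0.0356) and 0 rose. Ivns1abp fell with imiquimod in Cre-negative skin too, by 1.29 ± 0.29. Keap1, the receptor of the antioxidant factor NRF2, passed in no comparison, and its knockout effect with DMSO was 0.05 ± 0.23 (adjusted p = 0.889). Of 16 BTB adaptors without Kelch repeats, 4 fell and 0 rose in the knockout with DMSO: Kctd17 (-1.71 ± 0.33), Rhobtb1 (-2.66 ± 0.53), Btbd2 (-2.23 ± 0.45) and Rhobtb2 (adjusted p = 0.0493). Over all genes 15.7% fell and 14% rose there by edgeR.

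Of 32 genes of known substrates and partners, 7 rose and 4 fell in the knockout with DMSO, where 14% and 15.7% of all genes did, and none passed for knockout against Cre-negative skin with imiquimod, or for imiquimod in the knockout. By edgeR's unadjusted p under 0.05 these 2 comparisons held 4 and 3 of the 32. Irs1 and Pik3r1, which carry insulin signals, fell by 3.27 ± 0.35 (adjusted p = 2.9e-05) and 2.37 ± 0.26 (adjusted p = 4.4e-05). Aurka, the mitotic kinase that KLHL18 acts on, rose by 2.94 ± 0.40 (adjusted p = 1.9e-04). The same directions were seen with imiquimod in Cre-negative skin, where Irs1 fell by 2.93 ± 0.40, Pik3r1 by 2.61 ± 0.31 and Lmod3, the KLHL40 partner in muscle, by 3.77 ± 0.64. Knockout and Cre-negative DMSO libraries did not overlap for Pik3r1, at 54.0 to 70.4 against 249 to 357 CPM, while the RNA of its receptor Kbtbd2 passed no test in any comparison.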

How the data were processed

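RNA of mouse skin was sequenced with a 3′ tag kit (QuantSeq FWD), per the labels' protocols, in 14 libraries of 6 groups. The authors deposited whole-number read counts per gene, not normalized, for 56953 genes. The submitters' processing notes name the builds GRCm38 and GRCm39 and the tools STAR, featureCounts and DESeq2, with no versions or roles. Exon positions in the table are those of GRCm39, and the sources used here do not give strand or multi-mapping settings. The deposited gene length column holds exon length in bases, another unit, and entered no test.

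Counts were filtered with filterByExpr, scaled by TMM and fitted with edgeR 4.0.16 (R 4.3.3) by quasi-likelihood, with 1 mean per group over all 14 libraries. P-values were adjusted by Benjamini-Hochberg over 16027 genes, with a threshold of 0.05. The value after ± is a standard error, the fold change divided by the root of its F statistic. A group at 0 was given a floor of 3 counts, which covers counting error only, since the labels name no molecular identifiers that would mark PCR copies. The script was tested on simulated data. Total counts of 5552954 to 34362477 leave genes with few counts imprecise.

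The members, gene lists and tests were chosen with earlier results of these data known. Not every gene of the lists is reported here. All members are named, with values by library for those the results turn on and ranges or part of the libraries for the others. Alternatives were DESeq2 1.42.0, RLE scaling, library size alone, no filter, a stricter filter, only the groups compared, a replicate block, a sex term, and leaving out each library or both libraries highest in 18S RNA. Same-numbered knockout and Cre-negative DMSO libraries deviated together (r = 0.26, 0.10 and 0.17 over genes), so the blocked fit is given beside that comparison. Over all 31 same-numbered pairs r ran from -0.32 to 0.49, and the other numbers were not taken as pairs. Promoters are RefSeq's, on GRCm38.p6. Positions on different builds were not combined.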

Additional observations from a re-analysis of the deposited data

Results flagged for a closer look

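The response to imiquimod differed between knockout and Cre-negative skin for 12 members, by the interaction term of the edgeR model at an adjusted p under 0.05. On the log2 scale, the knockout response minus the Cre-negative one was 3.26 for Klhl31, 5.47 for Klhl30, 3.02 for Klhl33 and 3.08 for Klhl41, all muscle members. It was 2.69 for Klhl24, 2.89 for Kbtbd7, 3.65 for Klhl6, 2.05 for Kbtbd11, 1.55 for Klhl5, 1.76 for Klhl2 and 2.70 for Klhl22. For Kbtbd8 it was -4.54. Only the interaction calls of Klhl30, Klhl31, Klhl33, Klhl24 and Kbtbd7 were kept under every alternative. For Klhl31, Klhl33 and Klhl24 the Cre-negative response was a fall. For Kbtbd7, Klhl6, Klhl5, Kbtbd11 and Klhl2 the Cre-negative response did not pass the test and the knockout response was a rise. Klhl30 fell in Cre-negative and rose in knockout skin, the latter by way of replicate 1.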

How the results depend on the processing

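Of 53 member calls over all comparisons, 15 passed under every alternative run, 38 were lost under at least 1 and 0 changed direction. Leaving out 1 library at a time gave 5 to 9 calls for the knockout effect in DMSO skin (10 in the full fit) and 0 to 5 in imiquimod skin (8). For imiquimod it gave 2 to 5 in Cre-negative (6), 1 to 6 in knockout (7) and 3 to 7 in wild-type skin (10), and it gave 5 to 13 for the interaction (12) and 0 for Cre-negative against wild-type skin. A group left with 1 library is assumed to vary like the others. In the comparisons with calls, the number of all genes called also changed when a library was left out. A sex term gave 6 calls for the knockout with DMSO, 1 for imiquimod in the knockout and 7 for the interaction. Over all genes the share called moved with it from 29.6% to 9.03%, from 11.1% to 1.31% and from 23.6% to 9.17%. Without the 2 libraries highest in 18S RNA there were 1 for the knockout with imiquimod, 3 for imiquimod in Cre-negative and 4 in knockout skin. Fitting only the groups compared gave 4 for imiquimod in the knockout, where 7.49% of all genes passed. No filter gave 1 for Cre-negative against wild-type skin, where 1.43% of all genes passed. Library size alone gave 12 for imiquimod in Cre-negative skin, where it called 22.9% of all genes. It moved the median of all genes to -0.41 and 0.42 for the knockout effect in DMSO and imiquimod skin. For the imiquimod effect that median became -0.63, -0.76 and 0.12 in Cre-negative, wild-type and knockout skin, and for the interaction 0.84. The replicate block gave 4 for imiquimod in the knockout, where 7.88% of all genes passed. It gave 8, 7, 11 and 13 for the knockout with imiquimod, imiquimod in Cre-negative and in wild-type skin and the interaction. Of all genes 17.4%, 17.6%, 21.3% and 22.6% passed there. Crossed pairing, added after seeing the data, gave 6 for the knockout with imiquimod and 5 for imiquimod in wild-type skin. Of all genes 15.6% and 16.2% passed there. The cause of these changes was not tested. With 2 or 3 libraries per group and members of few counts, a call that was not made does not show equal levels.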
